A study of Mus musculus with 13 samples.

Results

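The genes described are 10 interferon-inducible GTPases, 5 immunity-related GTPases (IRG: Iigp1, Irgm1, Irgm2, Igtp and Gm12250) and 5 guanylate-binding proteins (GBP: Gbp2, Gbp3, Gbp5, Gbp6 and Gbp7), across steady state and, after total body irradiation (TBI) at a sublethal dose, days 1, 4 and 7. They were found by mouse symbol in the table of read counts, where all 10 of 10 were present among 53379 genes and all 10 passed the filter on low counts, which kept 19984 genes. The genes were selected because results of these same samples had shown them high at day 1, so their own values, and counts of how many passed the threshold of the fit, are given as a description from which no test is drawn. P-values are given only for genes outside the selection. The lists of those genes were also drawn up with earlier results of these data known, which limits what their p-values and counts can show. RNA was sequenced in bulk from sorted CD45- thymic cells, the stromal fraction that holds epithelial cells (TEC), endothelial cells (EC) and fibroblasts (FB), of wild-type C57BL/6 mice aged 2 months. Of 13 libraries, 4 came from untreated mice, which are called steady state here and whose columns carry the name PBS, and 3 libraries came from each of days 1, 4 and 7 after TBI. No animal carried a transgene or a deletion, and each library is a mixture of all CD45- cells, so fewer cells of a type and less RNA per cell cannot be told apart. The labels do not say whether a library came from 1 animal or a pool, and the error given therefore measures the spread between these libraries only.

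IRG and GBP proteins are GTPases that cells make in response to interferons and that act inside the cell against vacuolar bacteria and parasites. Irgm1, Irgm2 and Igtp (Irgm3) form the regulatory branch of the IRG family, which keeps the effector IRG proteins inactive on the membranes of the cell itself. Iigp1 (Irga6) and Gm12250 (Irgb10) belong to the effector branch, which loads onto the membrane around a pathogen and disrupts it. GBPs assemble into coats on pathogen membranes, and in the mouse most of their genes lie in a cluster on chromosome 3 and a cluster on chromosome 5. Interferon-gamma is known for acting through a gamma-activated site (GAS). Type I and type III interferons act through an interferon-stimulated response element (ISRE), to which STAT2 and IRF9 are recruited. The routes are not exclusive, so the element found before a gene does not tell which interferon acts on it.

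Stretches before the gene start are printed because both kinds of element can be read in them. RefSeq windows of 250 bases before and 50 bases after the start (GRCm38.p6) were read for 8 of the 10 genes, with 2 windows for Gbp3 and so 9 in all, and none was read for Iigp1 and Gbp6. Both strands were searched for the letters GAAANNGAAA (ISRE, TTTCNNTTTC on the other strand) and TTCNNNGAA (GAS, which reads the same on both strands). Capitals mark these matches, and each line runs 5′ to 3′ on the strand of the gene. The lines show parts of the windows: a second GAS match of Gbp5, 245 bases before its start, lies outside the printed stretch, and the second Gbp3 window, which held no match of either kind, is not printed.
Irgm1, chr11:48871428-48871457, minus strand: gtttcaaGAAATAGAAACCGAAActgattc
Irgm2, chr11:58214867-58214976, plus strand: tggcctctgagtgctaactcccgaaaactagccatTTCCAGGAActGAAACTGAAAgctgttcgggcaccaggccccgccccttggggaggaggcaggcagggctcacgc
Igtp, chr11:58199446-58199555, plus strand: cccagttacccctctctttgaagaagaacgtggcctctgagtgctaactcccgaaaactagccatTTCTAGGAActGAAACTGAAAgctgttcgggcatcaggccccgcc
Gm12250, chr11:58183733-58183842, plus strand: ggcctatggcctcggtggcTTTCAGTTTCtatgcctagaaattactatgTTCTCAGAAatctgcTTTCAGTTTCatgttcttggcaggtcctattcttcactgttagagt
Gbp2, chr3:142620594-142620623, plus strand: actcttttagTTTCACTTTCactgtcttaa
Gbp3, chr3:142559934-142560025, plus strand: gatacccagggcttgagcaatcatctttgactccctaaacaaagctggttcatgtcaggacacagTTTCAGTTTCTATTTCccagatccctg
Gbp5, chr3:142496754-142496899, plus strand: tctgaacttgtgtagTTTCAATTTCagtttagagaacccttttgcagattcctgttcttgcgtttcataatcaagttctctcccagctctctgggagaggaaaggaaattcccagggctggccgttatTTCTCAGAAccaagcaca
Gbp7, chr3:142530226-142530335, plus strand: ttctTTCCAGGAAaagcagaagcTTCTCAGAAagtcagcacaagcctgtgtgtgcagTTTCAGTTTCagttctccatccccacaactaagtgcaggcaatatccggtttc

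The ISRE letters stood in 8 of these 9 windows, at least 1 for each of the 8 genes, against 1131 of all 32851 windows (3.44%). The GAS letters stood in 5 of 9 (Irgm2, Igtp, Gm12250, Gbp5 and Gbp7), against 2726 windows (8.3%), and both stood in the same 5, against 149 windows (0.454%). Gm12250 held 2 copies of the ISRE letters, and in Irgm1 and Gbp3 a pair of matches overlapped, so that each capital run there is a single stretch. A match is a description of letters and not a site shown to be bound.

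Irgm2 and Igtp lie next to each other on chromosome 11. Their GAS letters begin 75 bases before the Irgm2 start and 45 bases before the Igtp start. The sequences were compared with these letters laid over each other, so the Igtp side reaches past the Igtp start. Of the 250 bases before the Irgm2 start, 164 (65.6%) were identical to the Igtp base laid against them. The longest identical run was 41 bases. In both genes, the ISRE letters began 11 bases after the start of the GAS letters. That spacing, noticed after the sequences had been read, was present in 5 of 32851 windows (0.0152%), and the rest of these 5 belonged to IRG genes outside the 10: Tgtp1, Tgtp2 and Gm12185. The 30 bases around the pair are shown so that they can be set beside the Irgm2 and Igtp lines.
Tgtp1, chr11:48992310-48992339, minus strand: gccatTTCCAGGAAtcGAAACTGAAAccta
Tgtp2, chr11:49064269-49064298, minus strand: gccatTTCCAGGAAtcGAAACCGAAAccta
Gm12185, chr11:48927244-48927273, minus strand: gccatTTCCAGGAAtaGAAAGTGAAAccta

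**Figure D1:**
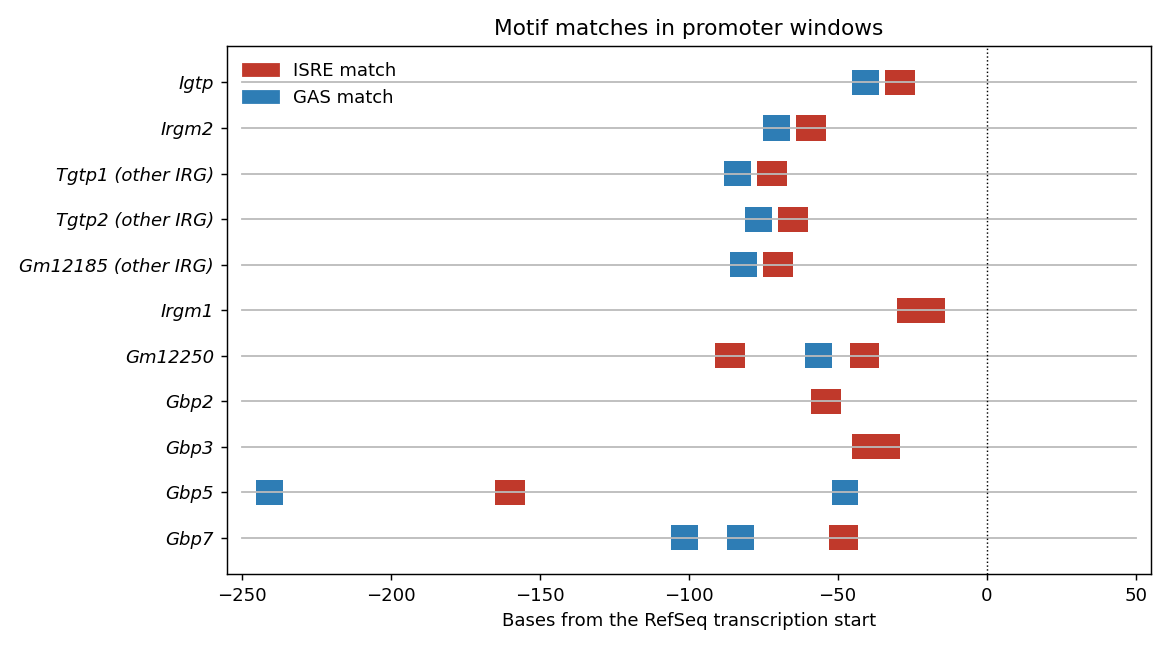
Positions of the ISRE letters (GAAANNGAAA) and the GAS letters (TTCNNNGAA), in bases from the RefSeq start, with negative values before it. The rows show the windows of the 8 genes (for Gbp3, the window that holds matches) and of the other IRG genes Tgtp1, Tgtp2 and Gm12185. All rows hold an ISRE match. The GAS match stands directly before the ISRE match in Irgm2, Igtp, Tgtp1, Tgtp2 and Gm12185.

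The depth of the libraries ran from 15721866 to 52056896 counted reads (median 44078906), and the 10 genes had between 201 and 68700 reads per library. The first day 1 replicate and the last 2 day 4 replicates stood apart from the other libraries of their days: the deviations of day 1 replicate 1 and of those 2 day 4 libraries correlated over the 19984 genes (r = 0.84, a description, since genes are not replicates), and 1093 genes (5.47%) were over 1.5 log2 units lower in both deviations. These genes had a median GC content of 52.5%, against 49.3% over all genes kept and 39.3% to 49.5% for the 10 GTPase genes. The tag at the end of the column name begins with k in the libraries that stood apart, and not in the others of days 1 and 4. All day 7 columns and those of PBS d4 rep2 and d7 rep2 carry such a tag too. What the tag stands for is not given. At day 4 the libraries that stood apart are the larger part, so the values do not tell which side deviates. TEC, EC and FB markers were detected in every group, with summed levels at steady state of 542 to 1767 CPM (counts scaled to a common library size by TMM, the normalization used throughout) for 7 TEC genes, 616 to 1015 CPM for 5 EC genes and 9340 to 48201 CPM for 6 FB genes. Markers of cells that the CD45- gate should remove were also present: 14 thymocyte genes summed to 266 to 858 CPM at steady state, 126 to 165 CPM at day 1, 25.9 to 40.8 CPM at day 4, and 235, 5442 and 2347 CPM in day 7 replicates 1, 2 and 3. The erythroid sum of 5 genes was 19580 to 33881 CPM at steady state and 9.23 to 13.1 CPM at day 4.

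Exons of the genes were taken from the count table (GRCm38, GENCODE M12), in which a gene's reads are those over its exons, untranslated parts included. The table names genes by Ensembl identifier, and the 10 were matched through a table of symbols. Irgm1 (ENSMUSG00000046879) lies at chr11:48861968-48871683 on the minus strand, Gm12250 (ENSMUSG00000082292) at chr11:58187739-58189012, Igtp (ENSMUSG00000078853) at chr11:58199556-58207591 and Irgm2 (ENSMUSG00000069874) at chr11:58199618-58222782, the last 3 on the plus strand. Gbp5 (ENSMUSG00000105504, chr3:142493978-142522344), Gbp7 (ENSMUSG00000040253, chr3:142530342-142550149), Gbp3 (ENSMUSG00000028268, chr3:142560026-142573209) and Gbp2 (ENSMUSG00000028270, chr3:142620602-142638008) follow each other on the plus strand of chromosome 3. Gbp6 (ENSMUSG00000104713) lies at chr5:105270702-105293698 on the minus strand, and Iigp1 (ENSMUSG00000054072) is on chromosome 18. Reads over exons of more than 1 gene, or with several equal alignments, were dropped in counting, which touches some of the genes. Of the exon bases of Gbp6, 1726 (29%) overlap Gm43302, and 70.7% of its 50-base stretches occur also in other genes, mainly Gm43302 and Gbp10. Its level is therefore uncertain, and values per length, which divide by all 5954 exon bases, may be too low. Igtp and Irgm2 share 162 exon bases, and 11.3% of Gbp7 exon bases overlap Gm43802. Gm12250 was counted over 1274 bases annotated as a processed pseudogene, inside a protein-coding RefSeq gene at chr11:58183843-58190198 with a span of 6356 bases, so its count covers only a part of that gene.

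All 10 genes were already expressed in the CD45- libraries at steady state, in which the cell types were not told apart. Per length, in RPKM (CPM per kilobase of exon, the only scale on which genes are compared with each other), Gbp2 was highest at 64.7 ± 17.96 (SD, n = 4), followed by Iigp1 (52.4 ± 10.04), Igtp (39.4 ± 2.997), Irgm2 (38.1 ± 3.72), Gbp3 (25.6 ± 3.48), Irgm1 (20.7 ± 4.01), Gbp7 (12.7 ± 3.87), Gm12250 (9.41 ± 3.16), Gbp5 (5.51 ± 1.56) and Gbp6 (2.99 ± 0.447). The ranges of neighbours overlapped for Gbp2 and Iigp1, for Igtp and Irgm2, for Gbp3 and Irgm1, and for Gbp7 and Gm12250, and the other neighbours did not overlap. Gbp2 stood at the 96.5th percentile and Gbp6 at the 54.3rd percentile of the genes kept. The level of Gbp6 per length, and with it its place, may be too low because reads over shared bases were dropped. The regulators Irgm1, Irgm2 and Igtp were thus within the range of the effector Iigp1 and of Gm12250 (9.41 to 52.4 RPKM), a comparison made across genes and without a test.

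At day 1 all 10 genes were higher than at steady state, from 3.21-fold (Gbp7) to 17.9-fold (Gm12250), and in all 10 every day 1 library lay above every steady-state library. Over all genes kept, 1.68% were called higher and 0.671% lower in this comparison (adjusted p of 0.05 or less), and 7.25% had every day 1 library above every steady-state library. All 10 were past the threshold on the higher side, a count the selection fixed and from which nothing is read. The median log2 fold change of the 10 was 2.40, against −0.10 over all genes kept. It was 2.75 for the 5 IRG genes, of which the lowest was 2.28 (Irgm2), and 1.82 for the 5 GBP genes, of which the highest was 2.76 (Gbp3). The difference between the families was not tested.

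Among the regulatory IRG genes, Irgm1, whose product controls the effectors on host membranes and supports autophagy, had 141, 140.3, 102 and 99.02 CPM at steady state in the libraries PBS d1 rep2, d4 rep2, d7 rep1 and d7 rep2, an order kept throughout. Its day 1 values were 1002, 562 and 511 CPM in replicates 1, 2 and 3. Irgm1 was 5.74-fold higher (log2 fold change 2.52 ± 0.26, SE), and replicate 1 stood well above replicates 2 and 3. Irgm2 had 124, 149, 136 and 155 CPM at steady state and 1040.1, 554 and 462 CPM at day 1. Its fold change was 4.87 (log2 2.28 ± 0.27), the smallest of the IRG genes, with a narrow spread at steady state. Igtp had 84.8, 77.8, 72.1 and 84.4 CPM at steady state and 819, 387 and 402 CPM at day 1, which was 6.72-fold higher (log2 2.75 ± 0.26). All 3 regulators were higher in each day 1 library than in any library of steady state.

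Of the effector IRG genes, Iigp1, which takes part in the coating of parasite vacuoles, had 207, 166, 145 and 136 CPM at steady state and 1943, 901 and 854 CPM at day 1. It was 7.53-fold higher (log2 2.91 ± 0.29) and became the highest of the 10 per length, at 395 ± 197 RPKM (n = 3). Gm12250, known for releasing bacterial ligands to inflammasomes together with GBPs, had 17.98, 9.63, 10.6 and 9.73 CPM at steady state and 345, 138 and 159.5 CPM at day 1. The change of 17.9-fold (log2 4.16 ± 0.34) was the largest of the 10. Gm12250 moved from rank 8 of the 10 per length at steady state to rank 6 at day 1, with 168 ± 89.5 RPKM, although its day 1 range overlapped those of the neighbours Gbp3 and Irgm1.

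On chromosome 3, Gbp2, a GBP with broad activity against vacuolar pathogens, had 102, 167, 173 and 210.3 CPM at steady state and 911, 408 and 401 CPM at day 1. It was 3.52-fold higher (log2 1.82 ± 0.32), and its steady-state libraries ranged more widely than those of Irgm2 or Igtp. Gbp3 had 76.1, 72.03, 90.9 and 95.6 CPM at steady state and 889, 426 and 387 CPM at day 1, 6.78-fold higher (log2 2.76 ± 0.27) and the largest change among the GBP genes. Gbp5, linked to inflammasome activation, had 48.6, 24.4, 40.4 and 32.98 CPM at steady state and 207, 111 and 113 CPM at day 1, 3.93-fold higher (log2 1.98 ± 0.27). Gbp7 is linked to oxidative defence at vacuoles. Its steady-state values were 83.4, 39.9, 73.7 and 87.9 CPM, with PBS d4 rep2 low, and its day 1 values were 327, 187 and 171 CPM. The change was 3.21-fold (log2 1.68 ± 0.33), the smallest of the 10.

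On chromosome 5, Gbp6 had 19.04, 14.00, 20.1 and 18.2 CPM at steady state and 89.99, 46.9 and 43.7 CPM at day 1. This was 3.38-fold higher (log2 1.76 ± 0.28) in the part of the gene that could be counted uniquely. Gbp6 stayed the lowest per length in each of the 4 groups, with 10.1 ± 4.34 RPKM at day 1. This place rests on its full exon length, including bases whose reads were dropped, and may be too low.

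Per length at day 1 the order was Iigp1, Igtp (265 RPKM), Gbp2 (228), Irgm2 (186), Gbp3 (174), Gm12250, Irgm1 (119), Gbp7 (40.6), Gbp5 (21.7) and Gbp6. Neighbours from Iigp1 to Irgm1 overlapped in their ranges, as did Gbp7 and Gbp5, while Irgm1 lay above Gbp7 and Gbp5 above Gbp6 in every library. The place of Gbp6 holds only for the reads that could be counted. Iigp1 was at the 99.6th percentile of the genes kept. Summed over the 10 genes, 859 to 929 CPM at steady state stood against 7573, 3721 and 3505 CPM in day 1 replicates 1, 2 and 3.

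**Figure D2:**
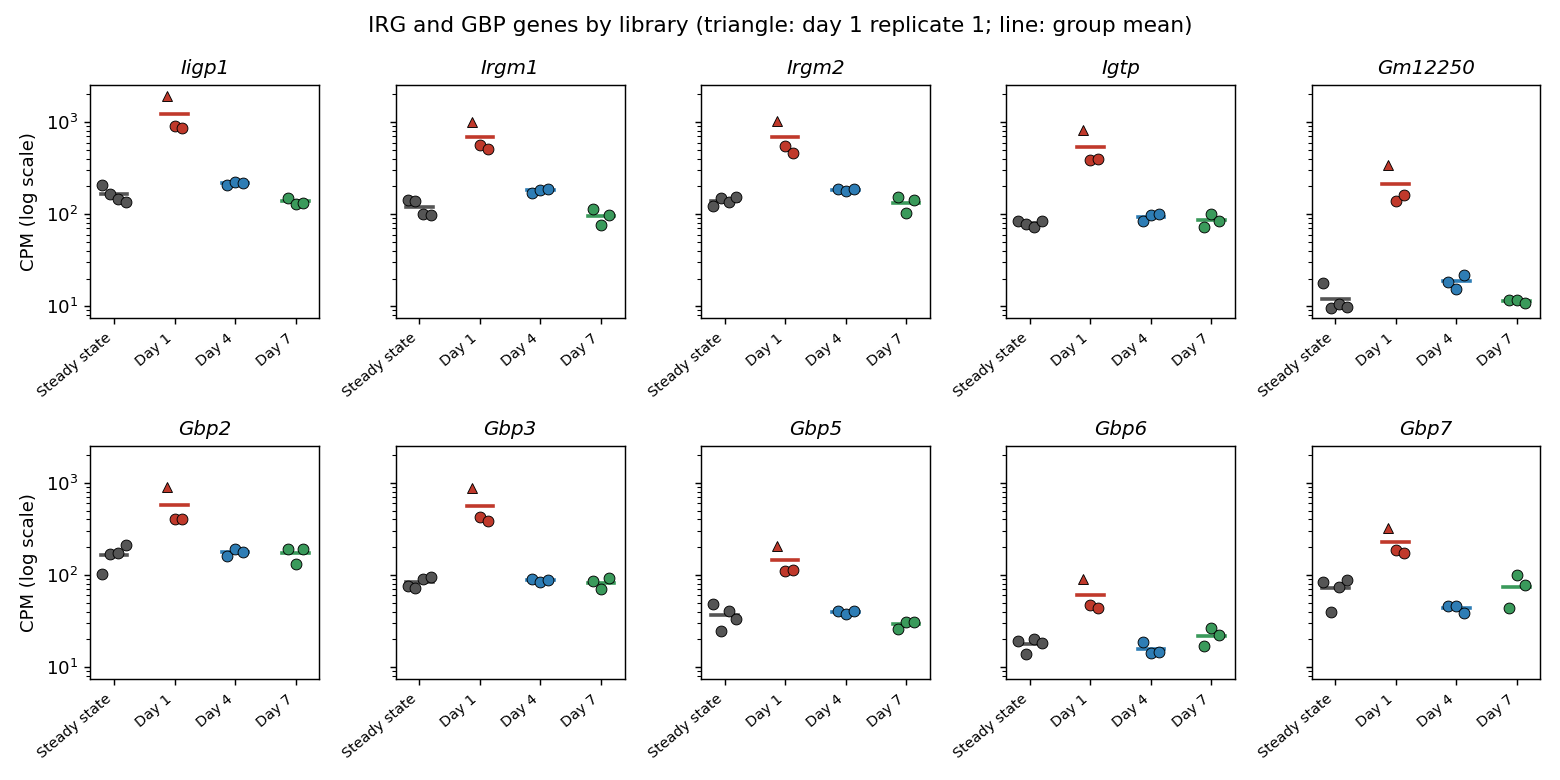
CPM of each of the 10 genes in each of the 13 libraries, on a log axis, grouped by steady state (n = 4) and days 1, 4 and 7 (n = 3 each). All day 1 points lie above the steady-state points of the same gene, and day 1 replicate 1 is the highest point of all 10 genes.

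Day 1 replicate 1 was above the mean of replicates 2 and 3 by 0.87 (Gbp7) to 1.22 (Gm12250) log2 units, with a median of 1.05 for the 10 genes against 0.10 over all genes kept. The difference was 1.08 for 12 targets known mainly for type I interferon. Without that library, the median log2 fold change at day 1 was 2.01, and 9 of the 10 genes remained past the threshold, with Gbp7 (log2 1.33) outside it. When day 4 replicates 2 and 3 were left out as well, Gbp2 (1.33) and Gbp7 (1.35) fell outside it and 8 of 10 remained. Neutrophil markers (6 of 7 genes kept), none at 0 in every library, summed to 4.33 to 26.3 CPM at steady state. In day 1 replicates 1, 2 and 3 they summed to 43.0, 20.9 and 27.2 CPM. The erythroid sums of these day 1 libraries were 16795, 3867 and 4704 CPM, so replicate 1 was highest in both. The part of neutrophil and erythroid RNA in the day 1 values was not tested. Macrophage and dendritic cell markers (11 genes) summed to 50.5 to 63.6 CPM at day 1 and 50.1 to 83.9 CPM at steady state. For NK cell and group 1 innate lymphoid cell markers (7 of 8 kept) the sums were 6.05 to 14.1 and 3.10 to 24.7 CPM. The sums do not show single genes. Macrophage and dendritic cell markers moved both ways at day 1 (3 positive and 8 negative, log2 −3.42 to 3.40). All 6 neutrophil markers had positive values, from 0.60 to 5.30.

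At day 4 the 10 genes were near the steady-state levels. Their log2 fold changes ran from −0.71 (Gbp7) to 0.63 (Gm12250), with a median of 0.18, and 0 of 10 were past the threshold in edgeR, where 0.05% of all genes kept were called higher and 0.24% lower. Of the 10, 1 had an unadjusted p under 0.05, on the higher side, and 0 of 10 passed in DESeq2. Over all genes kept, 845 were higher and 1757 lower at an unadjusted p under 0.05. DESeq2 called 247 of them higher and 368 lower. In 2 of the 10, every day 4 library was above every steady-state library, which held for 6.44% of all genes kept. These were Irgm1, with 171, 184 and 188 CPM at day 4 (log2 0.59 ± 0.26), and Irgm2, with 186, 179 and 188 CPM (log2 0.39 ± 0.26). In both the day 4 values were close to each other. Both are regulators, but Igtp, also a regulator, had the smallest change of the IRG genes (log2 0.24). The effectors Gm12250 (0.63) and Iigp1 (0.40) had larger values than Irgm2.

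The effectors overlapped with steady state. Iigp1 had 206, 225 and 215 CPM at day 4, which the highest steady-state library, PBS d1 rep2 (207 CPM), just reached. Gm12250 had 18.5, 15.5 and 21.8 CPM, and PBS d1 rep2 alone (18.0 CPM) lay in that range. Igtp had 83.9, 98.4 and 99.3 CPM and also overlapped. The median of the IRG genes was 0.40 and that of the GBP genes 0.068 on the log2 scale.

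Gbp2, Gbp3 and Gbp5 had log2 fold changes of 0.07 to 0.12 at day 4, with 161, 193 and 176 CPM for Gbp2, 90.7, 84.4 and 88.1 CPM for Gbp3 and 40.6, 37.3 and 40.4 CPM for Gbp5. Gbp6 had 18.7, 14.2 and 14.5 CPM. Gbp7 had 45.7, 46.2 and 38.9 CPM (log2 −0.71 ± 0.34), below all steady-state libraries but PBS d4 rep2. At day 4 the thymocyte sum was lower than in any steady-state library. In PBS d1 rep2, d4 rep2, d7 rep1 and d7 rep2 it was 782, 266, 858 and 309 CPM, beside Gbp7 values of 83.4, 39.9, 73.7 and 87.9 CPM. PBS d7 rep2 thus had a low thymocyte sum and the highest Gbp7 value of steady state. The part of thymocyte RNA in the Gbp7 values was not tested.

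At day 7 the log2 fold changes against steady state ran from −0.33 (Irgm1) to 0.29 (Gbp6), with a median of −0.048. None of the 10 was past the threshold in edgeR (0.005% of all genes kept were called higher and 0% lower). Of the 10, 0 had an unadjusted p under 0.05 and 0 passed in DESeq2. Over all genes kept, 1103 were higher and 1588 lower at an unadjusted p under 0.05. DESeq2 called 363 of them higher and 676 lower. Irgm1 had 114, 75.4 and 97.8 CPM at day 7, Irgm2 had 153, 104 and 142 CPM and Igtp had 72.1, 102 and 84.2 CPM. Replicate 2 was the lowest of the day for Irgm1 and Irgm2 and the highest for Igtp. Among the effectors, Iigp1 had 148, 130.2 and 134 CPM and Gm12250 had 11.7, 11.8 and 10.8 CPM, the tightest group of day 7. Of the GBP genes, Gbp2 had 193, 131 and 192 CPM, Gbp3 had 85.8, 69.8 and 91.9 CPM and Gbp5 had 25.9, 31.1 and 30.4 CPM. Gbp6 had 16.8, 26.4 and 22.2 CPM, and Gbp7 had 43.7, 99.03 and 78.2 CPM. All 10 ranges overlapped with steady state.

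**Figure D3:**
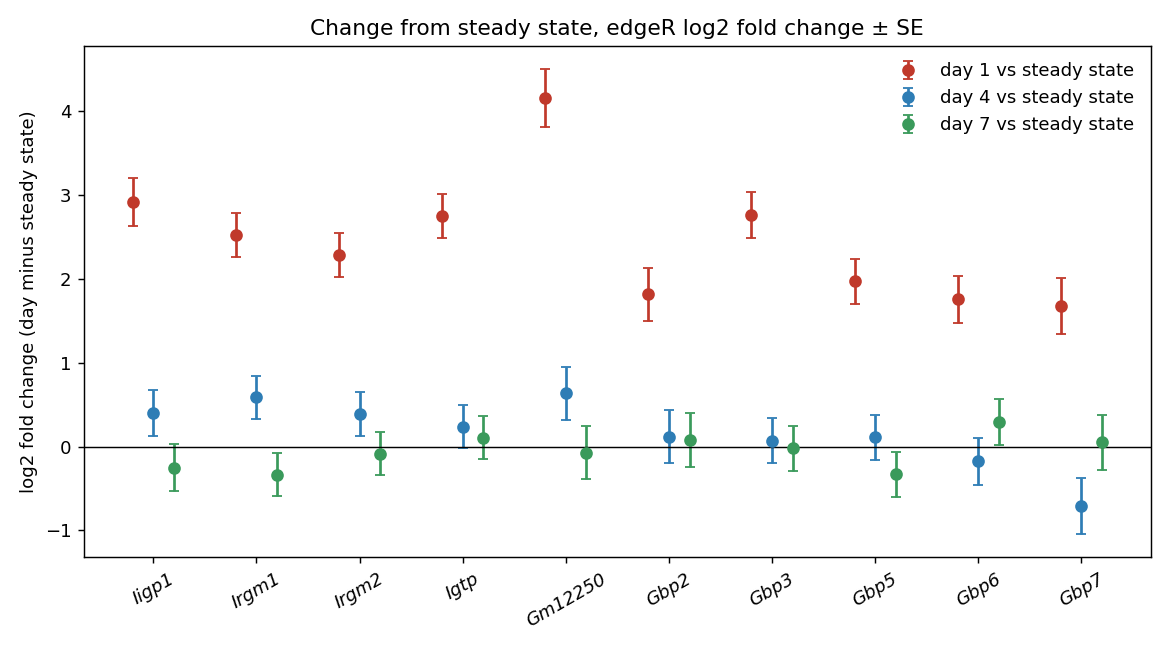
Log2 fold change of each of the 10 genes from steady state at days 1, 4 and 7, with bars of 1 SE from the edgeR fit of 13 libraries. The day 1 values run from 1.68 to 4.16, and those of days 4 and 7 lie between −0.71 and 0.63.

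Compared directly with day 1, all 10 genes were lower at day 4, by 1.70 (Gbp2) to 3.52 (Gm12250) on the log2 scale and with a median of −2.16, and all 10 were past the threshold. Over all genes kept, 0.355% were called higher and 1.07% lower. The genes were selected for high values in these same day 1 libraries, which favours a fall from day 1, so nothing is read from this count or from that of day 7 against day 1. Gm12250 changed by −3.52 ± 0.38, Gbp3 by −2.69 ± 0.31 and Iigp1 by −2.51 ± 0.31. Gbp7 changed by −2.39 ± 0.37, more between days 1 and 4 than between steady state and day 1, and its day 4 level was the lowest of the 4 groups. The count was 7 of 10 without day 4 replicate 2 or without day 4 replicate 3, and 0 of 10 without day 1 replicate 1 and day 4 replicates 2 and 3 together, which left 1 library at day 4, while all 10 fold changes stayed negative (Gbp3 at −2.18 and Gbp7 at −1.98).

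At day 7 all 10 genes were again lower than at day 1 and past the threshold, by the same selection. Over all genes kept, 3.68% were called higher and 4.45% lower. The log2 values ran from −1.47 (Gbp6) to −4.23 (Gm12250), with a median of −2.50. Gm12250 was 18.8-fold lower, Iigp1 8.97-fold lower and Gbp6 2.76-fold lower. Between days 4 and 7, 0 of 10 were past the threshold in edgeR (2.77% of all genes kept were called higher and 1.13% lower). On the lower side, 2 of 10 had an unadjusted p under 0.05, and DESeq2 called 1, Irgm1. Over all genes kept these counts were 1589 and 844. In 5 of the 10 every day 7 library was below every day 4 library, which held for 14% of all genes kept. These were Iigp1 (log2 −0.65 ± 0.30), Irgm1 (−0.92 ± 0.28), Irgm2 (−0.47 ± 0.28), Gm12250 (−0.70 ± 0.34) and Gbp5 (−0.44 ± 0.29), of which Iigp1, Irgm1, Irgm2 and Gm12250 are IRG genes. Gbp7 had the largest positive value, 0.76 ± 0.36, with 43.7 CPM in the day 7 library of the lowest thymocyte sum (replicate 1) and 99.0 CPM in that of the highest (replicate 2). The part of thymocyte RNA in this was not tested.

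The other IRG and GBP genes were looked at to see whether the day 1 difference reached beyond the 10. Of 18 listed genes, 17 passed the filter, and Irgc1 did not. At day 1, 9 of 17 were higher and 0 lower by the quasi-likelihood test of edgeR (p adjusted by Benjamini-Hochberg over all 19984 genes), against 1.68% of all genes kept called higher, and the median log2 fold change was 1.67. Gbp10, a neighbour of Gbp6 on chromosome 5, rose from 2.02 to 21.9 CPM (log2 3.44 ± 0.35, edgeR adjusted p = 0.000137), and 84.1% of its 50-base stretches are shared with other genes. Gm4841 (log2 2.45 ± 0.38, edgeR adjusted p = 0.00335), Gm12185 (2.41 ± 0.41, edgeR adjusted p = 0.00595) and Gm5431 (2.14 ± 0.44, edgeR adjusted p = 0.0205), all of the IRG family, also rose.

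Tgtp2 and Tgtp1, paralogs of the T-cell-specific GTPase type that share most of their sequence (86.6% and 81.2% of stretches), had log2 fold changes of 2.09 and 1.68 and both passed. The remaining genes that rose were Gm4951 (2.09), the very large GTPase Gvin1 (1.88, with 99.2% of its stretches shared) and Gbp9 (1.47). The count was 7 without day 1 replicate 1 and 5 without day 1 replicate 1 and day 4 replicates 2 and 3 together. Gm5431 was not called in 5 of 21 alternative settings, Tgtp1 in 3, and Gm12185 and Gvin1 in 1 each.

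The test was not passed by 8 listed genes at day 1. F830016B08Rik had a log2 fold change of 1.67 ± 0.42 (edgeR adjusted p = 0.06) with no overlap between the groups. Gbp4 had 94.6, 27.98, 60.6 and 47.02 CPM at steady state and 167, 101 and 104 CPM at day 1 (log2 1.11 ± 0.51, edgeR adjusted p = 0.286). Its neighbour Gbp8 had 34.3, 12.8, 30.2 and 23.3 CPM and 21.7, 13.8 and 12.7 CPM (log2 −0.65 ± 0.50, edgeR adjusted p = 0.538), on the other side of 0. Irgq, an atypical IRG gene outside the interferon-inducible set, had 33.7, 29.6, 42.3 and 25.4 CPM at steady state and 5.74, 53.1 and 39.1 CPM at day 1 (log2 −0.0055 ± 0.64, edgeR adjusted p = 0.998). Day 1 replicate 1, which stood apart, was far below the other libraries, and the log2 value ran from −0.72 to 0.52 over the alternatives. Gbp8 rose from day 4 to day 7 (log2 2.27 ± 0.55, edgeR adjusted p = 0.039), the only listed gene to pass in that comparison, and did not pass under 14 of 22 alternatives, among them leaving out day 7 replicate 2 or 3. The day 7 values of Gbp8 were 16.96, 102 and 39.4 CPM and those of Gbp4 26.1, 176 and 73.1 CPM, in the order of the thymocyte sums of these libraries (235, 5442 and 2347 CPM), whose part was not tested.

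Against steady state, 0 of these 17 genes passed at day 4 and 0 at day 7 in edgeR. An unadjusted p under 0.05 was found for 4 and 2, and DESeq2 called 0 and 1. Over all genes kept, 845 were higher and 1757 lower at day 4 at that unadjusted p, and 1103 and 1588 at day 7. DESeq2 called 247 higher and 368 lower at day 4, and 363 and 676 at day 7. From day 1 to day 4, 7 of 17 fell (1.07% of all genes kept were called lower), and from day 1 to day 7, 10 of 17 fell (4.45% called lower). The day 4 count was 0 without the 3 libraries that stood apart and 12 without PBS d4 rep2, without which 1 gene, F830016B08Rik, was also lower at day 4 than at steady state. DESeq2 called 13 lower from day 1 to day 4, against 551 of all genes kept.

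**Figure D4:**
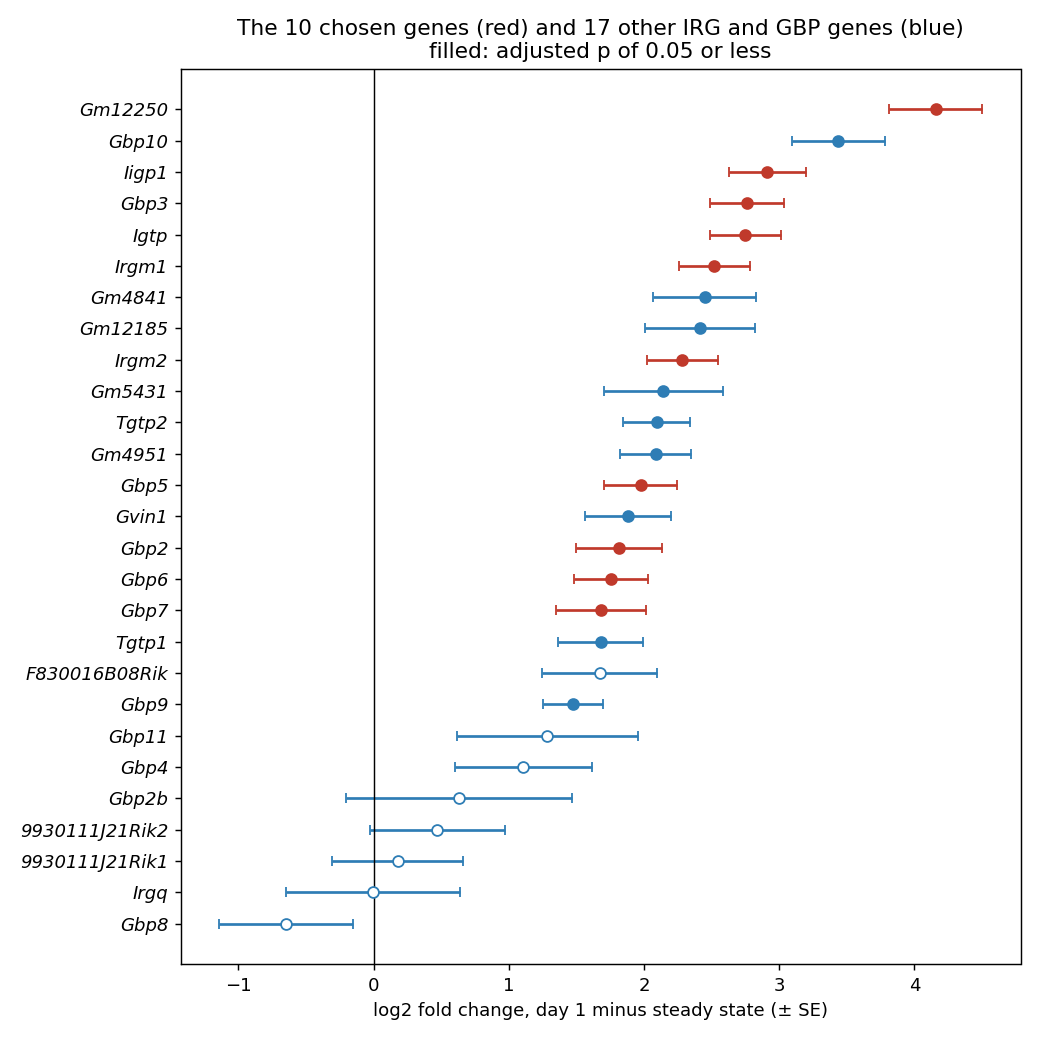
Log2 fold change at day 1 against steady state, with bars of 1 SE, for the 10 genes described and the 17 other IRG and GBP genes tested. The 10 selected genes lie between 1.68 and 4.16, and among the others Gbp10 is highest at 3.44 and Gbp8 lowest at −0.65.

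The rest of the interferon pathway was described from lists of ligands, receptors, inhibitors, targets and partners, and from single transcription factors. Ligand transcripts were rare. Of 10 interferon genes only Ifnl2 and Ifnl3 passed the filter. Neither of them passed the test at day 1. From day 1 to day 7 their log2 values ran from −6.46 to −4.23, and 0 of 2 passed in edgeR. DESeq2 called both lower in that comparison, and 1587 of all genes kept. Ifng had 0 to 6 reads per library at steady state, 3 to 17 at day 1, 3 to 4 at day 4 and 1 to 10 at day 7, and Ifnb1 had 0 to 7, 1, 0 to 5 and 0 reads. At this depth no statement can be made about which interferon was present.

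None of the 9 genes for interferon receptors and their kinases passed at day 1 in edgeR (median log2 −0.27). On the lower side, 1 had an unadjusted p under 0.05 and DESeq2 called 0. Over all genes kept these counts were 1686 and 531. Ifngr1, the ligand-binding chain of the interferon-gamma receptor, was 2.15-fold higher at day 7 than at day 1 (log2 1.10 ± 0.27, edgeR adjusted p = 0.0275), a call lost under 9 of 22 alternatives, among them leaving out any of the day 1 libraries. Of the transcription factors, Irf7, which amplifies type I interferon responses, rose at day 1 (log2 3.17 ± 0.32, edgeR adjusted p = 0.000139). Stat2 (log2 1.81 ± 0.24, edgeR adjusted p = 0.000916) and Irf9 (log2 1.33 ± 0.23, edgeR adjusted p = 0.00663), both recruited to the ISRE, also rose. Irf1, an activator of GBP genes, had a log2 fold change of 0.29 ± 0.25 (edgeR adjusted p = 0.587). Irf7 fell from day 1 to day 4 (log2 −2.13 ± 0.35, edgeR adjusted p = 0.0074), a call lost when any of the day 4 libraries was left out, and Stat2 fell (log2 −1.76 ± 0.26, edgeR adjusted p = 0.0042), a call lost without the 3 libraries that stood apart. The call for Irf9 at day 1 was lost without those 3 libraries. Among 6 inhibitors 1 rose, Usp18, which removes ISG15 and blocks the type I receptor (log2 2.65 ± 0.29, edgeR adjusted p = 0.000227).

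Genes known mainly as targets of type I interferon and genes known mainly as targets of interferon-gamma gave different counts at day 1. These lists, like the others, were drawn up with earlier results of these data known. All 12 of 12 listed type I targets were higher (1.68% of all genes kept were called higher), with a median log2 fold change of 3.22. Ifit3, which binds foreign RNA with its relatives, rose 25.4-fold (log2 4.67 ± 0.31, edgeR adjusted p = 2.29e-05). The antiviral GTPase Mx1 rose 22.4-fold (log2 4.49 ± 0.58, edgeR adjusted p = 0.000916), and Isg15, a ubiquitin-like modifier, rose 15.9-fold (log2 3.99 ± 0.31, edgeR adjusted p = 4.32e-05). Oas1a, an RNA sensor, rose 10.5-fold (log2 3.39 ± 0.29, edgeR adjusted p = 9.45e-05). Without day 1 replicate 1 the count was 11, and without the 3 libraries that stood apart it was 10. All 12 fell again from day 1 to day 4, of which 2 still passed without those 3 libraries, and all 12 from day 1 to day 7 (1.07% and 4.45% of all genes kept were called lower).

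Of 11 interferon-gamma targets, 0 passed at day 1 in edgeR, with a median log2 fold change of 0.33. On the higher side, 2 had an unadjusted p under 0.05 and DESeq2 called 1. Over all genes kept these counts were 1758 and 808. Nlrc5, the activator of MHC class I genes, had a log2 fold change of 1.42 ± 0.44 (edgeR adjusted p = 0.123) and the chemokine gene Cxcl9 had 0.74 ± 0.28 (edgeR adjusted p = 0.196). Both values are below those of all 10 GTPase genes, which are known to respond to both kinds of interferon, and the difference between the lists was not tested. At day 7 against steady state all 11 had negative values, with a median of −1.27, and 0 of 11 passed in edgeR. On the lower side, 8 of 11 had an unadjusted p under 0.05 and DESeq2 called 3. Over all 19984 genes kept these counts were 1588 and 676. From day 1 to day 7, 3 of the 11 fell (4.45% of all genes kept were called lower). These were Ubd (log2 −3.50), Cxcl9 (−1.98) and Nlrc5 (−1.82). From day 4 to day 7, 4 of the 11 fell (1.13% of all genes kept): Ubd (−2.61), H2-Aa (−2.13), Cd74 (−2.07) and H2-Ab1 (−1.98). These calls lie near the threshold: the day 7 to day 1 count was 8 by DESeq2, 9 without PBS d1 rep2, and 1 without the 3 libraries that stood apart, and the 4 calls between days 4 and 7 were each lost under 11 to 13 of 22 alternatives, among them leaving out day 4 replicate 2 or day 7 replicate 2. The summed TEC markers also stood at 1871 to 2560 CPM at day 4 and 484 to 844 CPM at day 7, and their part in these 4 genes, which TEC express, was not tested.

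Among partners of the GTPases, counts called at day 1 differed by list, beside 1.68% of all genes kept called higher. Of 10 genes for the ATG8 conjugation system, which directs IRG and GBP proteins to vacuoles, 0 passed in edgeR. On the higher side, 1 had an unadjusted p under 0.05 and DESeq2 called 0. Over all genes kept these counts were 1758 and 808. Of 5 ubiquitin-side partners tested 1 rose, the ubiquitin ligase gene Trim21 (log2 1.28 ± 0.24, edgeR adjusted p = 0.0124), which was lost without the 3 libraries that stood apart. Of 8 inflammasome genes, 2 rose: Casp4, which codes for the lipopolysaccharide sensor caspase-11 (1.24 ± 0.29, edgeR adjusted p = 0.0389), and Il1b (2.33 ± 0.56, edgeR adjusted p = 0.048). Each was lost under 9 alternative settings, leaving out day 1 replicate 1 among them. Il1b, which neutrophils and macrophages express, had a mean of 4.93 CPM at day 1, beside the neutrophil sums given above, whose part was not tested.

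**Figure D5:**
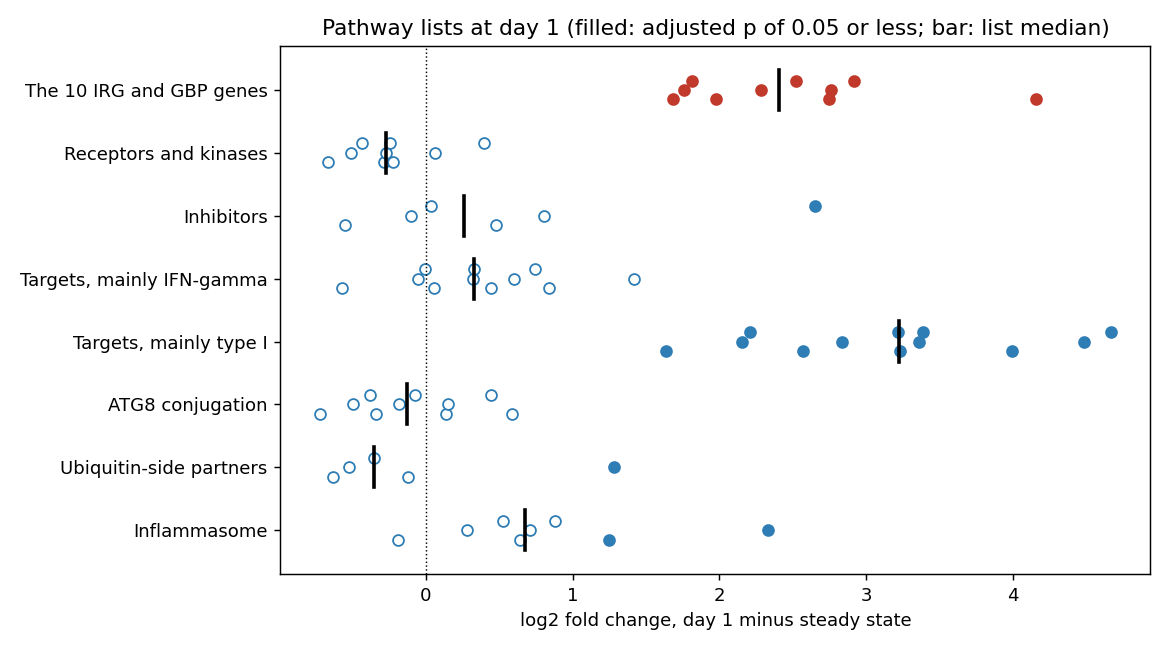
Log2 fold change at day 1 against steady state of each tested gene in 7 pathway lists and of the 10 GTPase genes, with the median of each list marked. The type I interferon target list has a median of 3.22, the interferon-gamma target list 0.33 and the 10 GTPase genes 2.40.

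The genes whose levels across the 13 libraries were most like the mean log2 CPM of the 10 were ranked by Pearson's r among 11449 genes with a mean of 5 CPM or more, as a description without a test. They were Ddx58 (r = 0.995), Ifit3b (0.993), Isg15 (0.992), Ifit3 (0.991), Phf11d (0.991), Uba7 (0.990), Parp9 (0.990), Xaf1 (0.990), Ifit2 (0.985) and Oas1g (0.985). The median r of all ranked genes was −0.11. Each of the 10 GTPase genes had an r of 0.84 to 0.99 with the mean of the other nine. The points share the 13 libraries, and the 3 day 1 libraries lie apart from the rest. By Spearman's rho, 0 of these genes were among the 10 most alike.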

How the data were processed

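Bulk RNA-seq of CD45- thymic cells was analysed in 13 libraries (4 steady state and 3 for each day after TBI). The authors used Trimmomatic 0.38 for trimming of paired reads and STAR 2.7.0e for alignment to the GRCm38.p5 genome with GENCODE M12, and deposited read counts per gene from featureCounts 1.6.3, which at its defaults ignores strand and drops multi-mapping reads and reads over more than 1 gene. Columns were matched to samples by name. Columns named PBS belong to samples whose labels say untreated.

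The counts were tested with the quasi-likelihood F-test of edgeR 4.0.16 (R 4.3.3) in 1 fit of all 13 libraries by condition, with TMM normalization, filterByExpr (minimum count 10) and Benjamini-Hochberg adjustment over 19984 genes at 0.05. The SE of a log2 fold change is its size divided by the square root of F. CPM were scaled by TMM, and RPKM are CPM per kilobase of exon. The scripts were tested on simulated data. The 10 genes and all lists were chosen with earlier results of these data known. All 10 genes are named, and of each other list up to 4 genes past the threshold with the largest change, plus further IRG and GBP genes and others that a statement turns on, chosen after their values were seen. A result on 1 of the listed transcription factors is not reported here, so that list is given without counts. Likeness used genes with a mean of 5 CPM or more and log2(CPM + 0.5).

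Alternatives were DESeq2 1.42.0, RLE size factors, 2 other filters, only the 2 conditions compared, the tag at the end of the column names as a covariate, a replicate block and leaving out each library. Removing a GC trend (span 0.3) and leaving out 3 libraries together were added after the data were seen. Promoter windows are from RefSeq (GRCm38.p6), and exon overlaps and 50-base stretches were computed from the count table and from GENCODE M21 transcripts. Figures were drawn with Python 3.11.15 and matplotlib 3.10.9.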

Additional observations from a re-analysis of the deposited data

Results flagged for a closer look

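At steady state 2 values stood apart from the other libraries of the group by Dixon's test, among 27 IRG and GBP genes tested. Chance alone flags about 1 in 20 such groups, or 1.35 of 27. Gm12250 had 17.98 CPM in PBS d1 rep2 and 9.63 to 10.6 CPM in the other 3 libraries. Its log2 fold change at day 1, 4.16 over all libraries, was 4.48 without that library, and the lowest over the alternatives was 3.64, without day 1 replicate 1. The gene 9930111J21Rik1, an IRG gene outside the 10, had 2.53 CPM in PBS d4 rep2 and 11.9 to 12.3 CPM in the other 3, and 83.2% of its 50-base stretches are shared with other genes.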

How the results depend on the processing

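The day 1 difference of the 10 genes from steady state kept its direction for all 10 under all 21 alternatives, with 9 to 10 past the threshold when 1 library was left out, 8 without the 3 libraries that stood apart, and a median log2 fold change of 2.01 to 2.60 with 1 library left out. At day 4 against steady state the median was 0.28 in a fit of only those 2 conditions and 0.16 to 0.36 with 1 library left out, and 0 genes passed under any alternative. From day 1 to day 4, 7 to 10 genes passed with 1 library left out (7 without day 4 replicate 2 or 3), and 0 passed without day 1 replicate 1 and day 4 replicates 2 and 3 together, which leaves 1 library at day 4 that is assumed to vary like the others. From day 1 to day 7 the median was −2.70 to −2.07 with 1 library left out, the latter without day 1 replicate 1, and 9 to 10 genes passed. From day 4 to day 7 the median was −0.35 with DESeq2, −0.35 with RLE, −0.40 with the tag covariate, −0.23 with the GC trend removed and −0.42 to −0.25 with 1 library left out. Irgm1 passed there in DESeq2 (1 gene) and without day 1 replicate 1 (0 to 1 genes with 1 library left out). The causes were not tested.

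The replicate numbers after TBI gave no sign of pairing: deviations of same-numbered libraries of days 1 and 4 correlated at −0.84, −0.60 and −0.57 over genes. The libraries that stood apart weigh on these values. The values were −0.20, −0.41 and 0.18 for days 7 and 1, and 0.21, 0.27 and −0.32 for days 7 and 4. Whether the libraries were paired cannot be told from them. When the replicate number was fitted as a block, 3 of the 10 genes passed from day 1 to day 4 and 8 of 10 from day 1 to day 7. No paired analysis was possible against steady state because the steady-state columns do not carry the replicate numbers of the labels. Of the 10 genes' fold changes over all comparisons and alternatives, 1259 moved by less than the spread between replicates and 31 by more, and none of the called ones changed sign. Over all genes the counts of calls moved by more than 1.5 times in 132 cases and by less in 126. At day 1, 335 genes were called higher, against 808 by DESeq2, 198 without day 1 replicate 1 and 142 without the 3 libraries.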
